A study of Schizosaccharomyces pombe
Saccharomyces cerevisiae with 8 samples.

Results

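Newly synthesized RNA of the budding yeast Saccharomyces cerevisiae was compared between cells depleted of Sua7 and control cells, and the differences between genes around the general fall were described. The 4 libraries were chosen by their labels, out of 8 libraries in the series, the other 4 being of total RNA. The deposited table of newly synthesized RNA listed 6741 of the 6808 genes found in either of the study's tables, and 5800 of them had enough counts to be tested. Newly synthesized RNA was the fraction labelled by 6 min of 5 mM 4-thiouracil, a uracil analog that cells build into RNA as they make it, and purified through that label.

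The tested libraries were 2 replicates of cells given 500 µM auxin (3-IAA) for 30 min, and the control libraries were 2 replicates of cells given the carrier DMSO for 30 min. All 4 came from 1 strain, GZY364, named OsTIR1 SUA7-IAA7, which is MATalpha and carries mutations or deletions in ADE2, HIS3, LEU2, LYS2, MET15, TRP1 and URA3. It expresses the plant auxin receptor OsTIR1 from the GPD1 promoter at HIS3, and its Sua7 is fused to V5 tags and the IAA7 degron. No cells without the degron were given auxin in these libraries, so loss of Sua7 and any other action of auxin cannot be told apart. The protein was not measured. Replicates carry numbers in the labels, with no word on separate cultures. The spread behind each p-value may therefore be technical.

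Sua7 is the yeast TFIIB, a general transcription factor of RNA polymerase II. TFIIB joins the TATA-binding protein at the promoter, recruits the polymerase and takes part in choosing where transcription starts. RNA polymerase II makes messenger RNAs, most small nucleolar RNAs (snoRNAs) and most spliceosomal RNAs. RNA polymerase III uses its own TFIIB-like factor, Brf1, and makes transfer RNAs (tRNAs) and a few other short RNAs. Mitochondrial genes are read by a separate single-subunit polymerase.

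The auxin libraries held 1291241 and 1753672 counts, and the DMSO libraries 9496247 and 11779971. A nuclear protein-coding gene had a median of 86 and 116 raw counts in the auxin libraries, against 719 and 923 in the DMSO libraries. As a check of the strain, MF(ALPHA)1, the alpha-factor gene of MATalpha cells, had 468 and 645 raw counts in auxin and 6227 and 7576 in DMSO. YDR461W, an a-factor gene of MATa cells, had 1 and 2 raw counts in auxin and 2 and 1 in DMSO. Other genes of MATa cells were counted more often. YFL026W, the alpha-factor receptor gene, had 88 and 93 raw counts in auxin and 76 and 96 in DMSO. BAR1 had 21 and 19 in auxin and 18 and 29 in DMSO, so these markers are mixed. YOR128C, whose deposited description is that of the enzyme encoded by the deleted ADE2, had 0 and 0 raw counts in auxin and 0 and 2 in DMSO. In bulk samples such as these, fewer labelled cells and less labelled RNA per cell cannot be told apart.

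Each gene was tested on 2 scales. On the deposited scaling, in which each library is divided by the authors' factor, 5659 of the 5800 tested genes were lower in auxin (97.6%) and 76 were higher (1.31%). A call needed an adjusted p under 0.05 in edgeR's quasi-likelihood test. How many genes were higher depended on low counts and on the tool, with 8 of them where genes were kept above a mean count of 50, 123 with no filter and 32 with DESeq2. The spread between genes was tested with TMM scaling, which sets the typical gene near no change. On that scale 1523 genes fell further than the typical gene (26.3%), 1608 fell less or rose (27.7%), and the remaining genes were not distinguished from it. DESeq2 called 982 relatively lower. These are the backgrounds for every group described here, and "relatively lower" and "relatively higher" refer to TMM calls. Values are log2 changes of auxin over DMSO on the deposited scaling unless called relative.

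Most nuclear protein-coding genes fell to a small share of their own DMSO level, and that share differed between genes. Over the 5627 tested, the median log2 change was -4.08, with quartiles at -4.45 and -3.68. In the units of the DMSO level, the middle 50% of these genes kept between 4.58 and 7.79%, with a median of 5.90%. The 5th and 95th percentiles were -5.06 and -2.80. There were 421 genes (7.48%) more than 1 log2 unit above the coding median, and 262 (4.66%) more than 1 unit below it. The tail was longer upward, with 144 genes more than 2 units above the median and 28 more than 2 units below.

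Both replicates showed much of this spread. The change of auxin replicate 1 over DMSO replicate 1 and that of auxin replicate 2 over DMSO replicate 2 share no library, and over the 5627 coding genes they correlated with a Pearson r of 0.85 and a Spearman rho of 0.80. This is a correlation across genes, which are not independent replicates. The 2 pairs differed in level, with medians of -4.17 and -3.99. Their SDs over genes were 0.90 and 0.83, of which an SD of 0.80 was shared by both pairs. Counting error alone would give SDs of 0.38 and 0.34. Among the 3226 coding genes with a mean of at least 500 scaled counts over the 4 libraries, the SDs of the 2 pairs were 0.55 and 0.49. The shared SD was 0.49, and counting error came to 0.13 and 0.11. Of these better-measured genes, 98 lay more than 1 unit above the coding median and 50 more than 1 unit below. The mean includes the auxin libraries, so genes that fell less passed at lower DMSO levels, and both counts carry this selection.

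**Figure D1:**
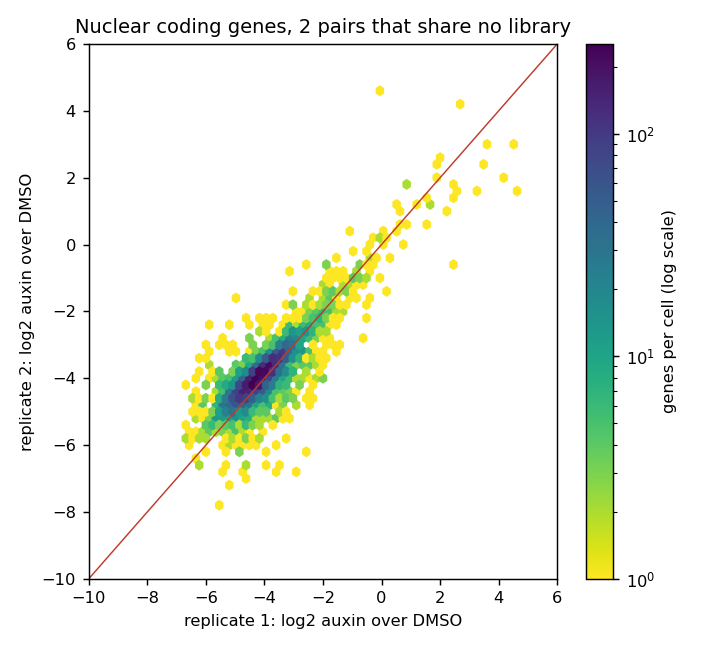
Log2 change of auxin over DMSO for the 5627 tested nuclear coding genes in replicate 1 (x axis) and replicate 2 (y axis), on the deposited scaling. Colour gives the number of genes in each hexagon on a log scale and the red line marks equal changes. The cloud lies along the line around -4.17 and -3.99, with a longer tail toward smaller falls.

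A test against a minimum distance from the typical gene left fewer calls. With the threshold at 1 log2 unit of relative change (edgeR's glmTreat, adjusted p under 0.05), 304 of the 5800 tested genes were higher and 26 were lower. Of these, 208 higher and all 26 lower ones were nuclear coding genes. At a mean of at least 500 scaled counts, 37 of 3226 coding genes were higher by more than 1 unit and 13 were lower. Both counts carry the selection by that mean, which includes the auxin libraries.

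Sorted by biotype, the coding genes, the snoRNA genes and the spliceosomal RNA genes had similar median log2 changes. The tested tRNA genes, mitochondrial coding genes and ribosomal RNA spacer did not share the fall. Of 66 tested snoRNA genes, 65 fell and 1 rose, with a median of -4.15. On the relative scale 8 snoRNA genes were higher (12.1%) and 17 lower (25.8%), beside 27.7 and 26.3% of all tested genes. The gene that rose was snR52, which RNA polymerase III transcribes. Named for their abundance, snR86 changed by -3.73, snR30 by -3.82 and snR37 by -4.17. These are H/ACA snoRNAs, of which snR86 and snR37 guide pseudouridylation of ribosomal RNA, and snR30 is needed for cleavage of its precursor. snR30 had 495.2 and 785.7 scaled counts in auxin and 9120 and 8944 in DMSO, so the groups lay far apart.

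All 3 tested small nuclear RNA genes fell, with a median of -4.33. LSR1, the U2 RNA of the spliceosome, had 1691 and 2521 scaled counts in auxin and 41430 and 46220 in DMSO, or -4.38 on the log2 scale (SE 0.39, the absolute change over the square root of the test's F; edgeR adjusted p = 3.42e-29). SNR19 changed by -4.33 and SNR14 by -4.25. Both encode spliceosomal RNAs, U1 and U4.

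Tested genes of RNA polymerase III did not share the fall of the coding genes. The 78 tested tRNA genes had a median of 1.55, which is 5.63 above the coding median. In this class 52 genes rose, 4 fell, and 77 were relatively higher. Of the 78 genes, 61 had under 10 counts in both DMSO libraries and passed the filter through the auxin libraries, where they were high. These counts and this median therefore describe the tested copies and are no support for a rise of tRNA genes as a class. The median tRNA gene minus the median coding gene was 5.90 and 5.27 in the auxin libraries, relative to the DMSO mean, and -0.06 and 0.06 in the DMSO libraries. Setting genes against the DMSO mean makes the DMSO offsets mirror each other, so the gap between the groups is no added support. The most abundant tested tRNA genes were tW(CCA)P, for tryptophan, tG(GCC)P1, for glycine, and tI(AAU)G, for isoleucine. tI(AAU)G had 160 and 154 raw counts in auxin and 13 and 21 in DMSO, and its log2 change was 2.15 (SE 0.38, edgeR adjusted p = 1.39e-08). Only 78 of 254 listed nuclear tRNA genes had enough counts to be tested, and tRNA copies of near-identical sequence may share reads, so single copies are uncertain. RPR1, the RNA of nuclear RNase P, had 14170 and 15220 scaled counts in auxin and 13320 and 14240 in DMSO, or 0.09 on the log2 scale (SE 0.34, edgeR adjusted p = 0.785). SCR1, which forms part of the signal recognition particle and was the most abundant RNA of this polymerase, had 56380 and 64040 scaled counts in auxin and 88660 and 88010 in DMSO. Both auxin libraries lay below both DMSO libraries, and the change of -0.55 (SE 0.33) did not pass the test (edgeR adjusted p = 0.0951).

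The only tested nuclear gene of biotype rRNA was ETS1-1, a spacer in the ribosomal RNA precursor that RNA polymerase I makes. It had 67 and 24 raw counts in auxin and 15 and 6 in DMSO, and its log2 change was 1.05 (SE 0.43, edgeR adjusted p = 0.0158). The call was lost without auxin replicate 1 (0.13, adjusted p = 0.806) or DMSO replicate 2 (0.49, adjusted p = 0.302) and with DESeq2 (1.04, adjusted p = 0.231). Ribosomal RNA was depleted from these libraries.

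The 9 tested nuclear genes of biotype ncRNA spread widely, from a median of -2.86 with an interquartile range of 3.85. They join RNAs of different polymerases: RPR1 at 0.09 stood in the same class as ICR1, a long RNA of polymerase II that runs across the FLO11 promoter, at -4.62. ICR1 had 61.72 and 84.99 scaled counts in auxin and 1599 and 2018 in DMSO. Among the 10 tested mitochondrial coding genes, 1 fell, none rose, and all 10 were relatively higher, with a median of -0.17. The 1 tested mitochondrial ribosomal RNA gene, 21S_RRNA, had 144.2 and 100.2 scaled counts in auxin and 231.7 and 222.2 in DMSO. Its log2 change was -0.89 (SE 0.31, edgeR adjusted p = 0.00371). The call was lost without auxin replicate 2 (-0.65) or DMSO replicate 1 (-0.86). The 3 tested pseudogenes had a median of -4.53.

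**Figure D2:**
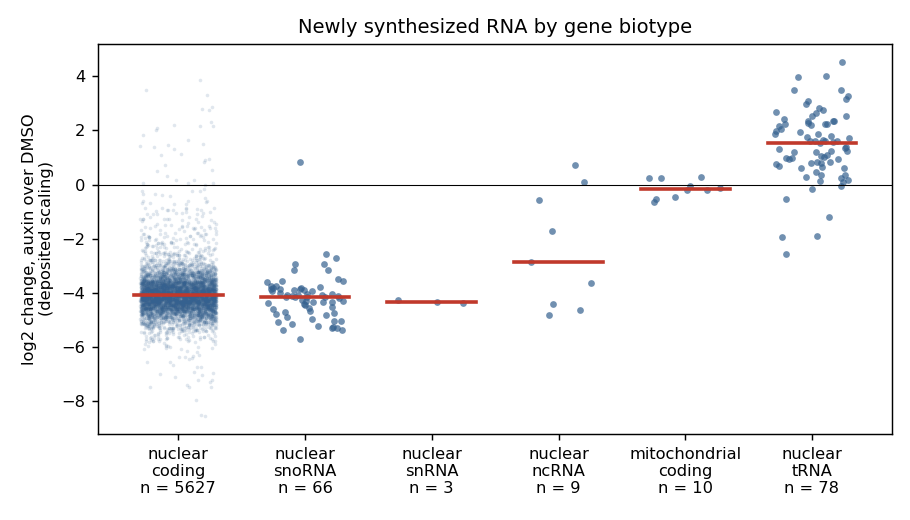
Log2 change of auxin over DMSO on the deposited scaling (y axis) for each tested gene of 6 biotypes (x axis, with the number of genes), points spread sideways for visibility and the red bar marking the median. Coding, snoRNA and snRNA medians lie between -4.33 and -4.08, the mitochondrial median is -0.17 and the tRNA median is 1.55.

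Within the coding genes, reading frames listed as dubious fell less. The 140 tested had a median of -3.36, which is 0.72 above all coding genes, with quartiles at -4.12 and -1.84. In this class 54 genes were relatively higher and 4 relatively lower. The offset was 0.47 among genes above a mean count of 50, and 1.16 from ratios of mean scaled counts with a pseudocount of 1. They were weakly represented, with a median DMSO level of 81.6 scaled counts per kb and a median of 5.75 raw counts in an auxin library. Dubious frames often overlap another gene, and use of the strand in counting is not stated in any source used. The part of low counts and of overlap in this difference was not tested. The 725 genes of unknown function had a median of -4.20, with 142 relatively higher (19.6%) and 190 relatively lower (26.2%). Among all tested genes these shares were 27.7 and 26.3%.

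Introns went with no shift of the median. An intron was inferred where a gene's span on the chromosome was longer than its deposited transcript length. The 252 tested genes of this kind had a median of -4.10 and split into 62 relatively higher and 61 relatively lower. The 5235 other coding genes, dubious frames aside, had a median of -4.09. Genes within 15 kb of the outermost listed gene of a chromosome, 113 in number, had a median of -4.11. Of them, 29 were relatively higher (25.7%) and 26 relatively lower (23.0%), near the 27.7 and 26.3% of all tested genes. Their interquartile range of 1.25 was wider than the 0.76 of genes farther in, and their median DMSO level was 178 scaled counts per kb, against 995 farther in.

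The level of a gene in DMSO went with almost no trend in the size of the fall. Over the 5627 coding genes the Spearman rho of the log2 change with the DMSO level per kb was 0.01. The change and the level share the DMSO libraries. With the level taken from DMSO replicate 1 and the change against DMSO replicate 2, rho was 0.00, and with the roles exchanged it was -0.04. Without a filter on low counts rho was -0.18. Levels per kb in auxin and in DMSO ranked the genes alike, with a rho of 0.92. The level in total RNA did not go with it either: rho was -0.03 with the DMSO level in total RNA and -0.03 with the ratio of total to newly synthesized level, over 5625 genes.

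By deciles of the DMSO level, the medians ran -3.57, -4.16, -4.26, -4.22, -4.17, -4.15, -4.04, -3.97, -3.93 and -4.10 from the lowest to the highest. The shallowest fall and the widest spread were both in the lowest decile, where the interquartile range was 1.97, against 0.59 to 0.68 in deciles 4 to 10. In that decile 181 of 563 genes were relatively higher and 37 relatively lower. All 22 coding genes that rose on the deposited scaling were in it. The decile was set by the DMSO libraries that also enter the change. Of the tested coding genes, 40 had under 10 counts in both DMSO libraries and passed the filter through their auxin counts. These calls and this median are therefore no support for a rise or a shallower fall at low levels. Its median gene had 59.8 scaled counts per kb in DMSO and 6 raw counts in an auxin library, where counting error alone gave SDs of 0.97 and 0.88. Its median was 0.51 above that of all coding genes in the fit and 0.88 above it from ratios with a pseudocount of 1. The part of such low counts in the shallower fall was not tested.

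Above the lowest decile, the medians rose slowly between the third and the ninth decile. In the third decile 95 of 562 genes were relatively higher and 178 relatively lower, and in the ninth 231 of 563 were relatively higher and 123 relatively lower. The decile with the highest levels turned back, with 165 relatively higher and 195 relatively lower.

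**Figure D3:**
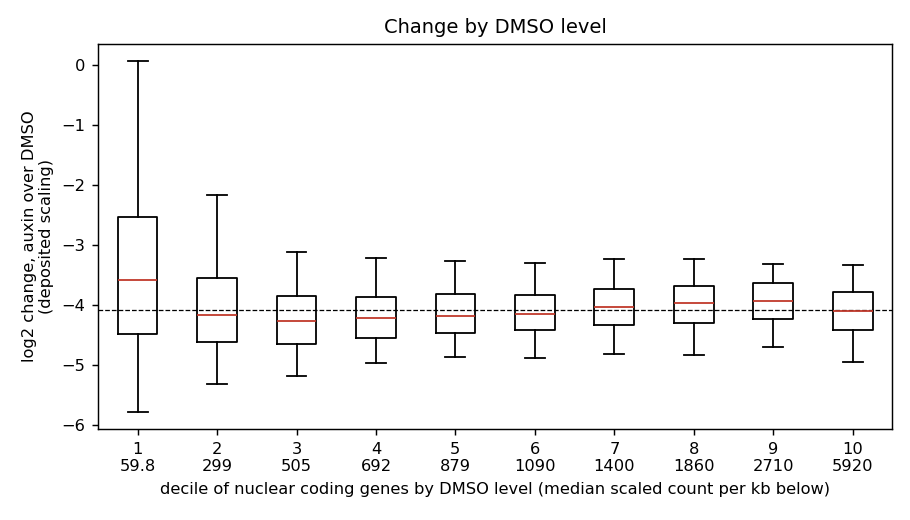
Log2 change of auxin over DMSO on the deposited scaling (y axis) by deciles of the DMSO level of nuclear coding genes (x axis, the median scaled count per kb under each decile). Boxes give quartiles and median, whiskers the 5th and 95th percentiles, and the dashed line the coding median of -4.08. Medians of deciles 2 to 10 lie between -4.26 and -3.93, and the lowest decile is wider and higher.

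The nuclear coding genes with the highest DMSO levels stayed close to the common fall. OYE2, an NADPH oxidoreductase and the coding gene with the highest DMSO level per kb, had 2924 and 4055 scaled counts in auxin and 80140 and 93590 in DMSO, or -4.64 on the log2 scale (SE 0.39, edgeR adjusted p = 3.56e-32). TDH3, a glyceraldehyde-3-phosphate dehydrogenase of glycolysis, had 3746 and 4902 scaled counts in auxin and 64170 and 68880 in DMSO, a change of -3.94. The chaperone genes HSP82 and HSC82 changed by -4.23 and -4.24, and SSA1, another chaperone gene, by -4.12. All 10 nuclear coding genes with the highest DMSO levels per kb fell, with log2 changes from -4.64 to -3.94. OYE2, YOL151W (a methylglyoxal reductase), YNL134C (an aldehyde reductase) and YCR012W (phosphoglycerate kinase) were relatively lower. YLL026W, a disaggregase, was relatively lower by 0.46 (SE 0.11, edgeR adjusted p = 0.00127), a call that was lost without auxin replicate 1 (adjusted p = 0.130) or auxin replicate 2 (0.126). ENO2, an enolase, was relatively lower by 0.29 (SE 0.10, edgeR adjusted p = 0.0210), and leaving out DMSO replicate 1, auxin replicate 1 or auxin replicate 2 raised that adjusted p to 0.219, 0.153 and 0.0955.

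Paralogs of 1 enzyme differed. ENO1 changed by -5.68 and ENO2 by -4.32, and TDH1 and TDH2 changed by -5.69 and -5.32 while TDH3 changed by -3.94. These pairs are similar in sequence, and no source used says how reads shared by paralogs were counted. ENO1 had 235.1 and 420.1 scaled counts in auxin and 15680 and 17880 in DMSO.

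Transcript length showed a weak trend. The Spearman rho of the log2 change with length was 0.09 over all 5627 coding genes and 0.09 over the 3226 with a mean of at least 500. The decile of longest transcripts, with a median length of 3510 bases, had a median change of -3.98 and 220 relatively higher against 142 relatively lower genes. The fifth decile, with a median length of 1110 bases, had the lowest median at -4.19, with 111 relatively higher and 190 relatively lower. Raw counts rise with length, from a median of 84 in an auxin library in the fifth decile to 453 in the longest, so the longer genes were also better measured.

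Chromosomes differed little. Their medians ran from -4.22 on chromosome VI to -4.01 on chromosomes XIV and XV. On chromosome VI 18 of 107 genes were relatively higher and 36 relatively lower. The chromosome VI median minus that of all coding genes was -0.18 and -0.14 in the auxin libraries, and 0.01 and -0.01 in the DMSO libraries. Each gene was set against its DMSO mean, so the DMSO offsets mirror each other by construction. The gap between the groups is no added support for a difference of this chromosome. Chromosome XV had 155 relatively higher (30.2%) and 120 relatively lower genes (23.4%) of 513, near the 27.7 and 26.3% of all tested genes.

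Position next to a gene of RNA polymerase III went with a deeper fall. The 109 coding genes with such a gene within 500 bases upstream of their start had a median of -4.60, which is 0.52 below all coding genes. In this class 62 genes were relatively lower (56.9%) and 9 relatively higher (8.26%), beside 26.3 and 27.7% of all tested genes. The class median minus the coding median was -0.57 and -0.42 in the auxin libraries and -0.01 and 0.01 in the DMSO libraries. Each gene was set against its DMSO mean, which by construction makes the DMSO offsets mirror each other. The gap between the groups is therefore no added support. Among the 110 coding genes with the polymerase III gene downstream of their end, the median was -4.25, with 40 relatively lower and 22 relatively higher. The class offsets there were -0.15 and -0.15 in auxin and -0.01 and 0.01 in DMSO. Among genes with a mean of at least 500 scaled counts, the upstream class had an offset of -0.45 from the coding median and the downstream class had an offset of -0.09. The difference between the upstream and downstream classes was not tested.

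The deeper fall faded with distance. With the polymerase III gene upstream, the medians were -4.72 within 250 bases (52 genes), -4.56 from there to 500 bases (57 genes), -4.27 to 1000 bases (70 genes), -4.21 to 2000 bases (110 genes) and -4.17 to 5000 bases (281 genes). With that gene downstream, they were -4.27, -4.25, -4.10, -4.08 and -4.10 over the same distances. Coding genes more than 10000 bases away had a median of -4.06 (3772 genes). The DMSO level of the upstream class was a median of 790 scaled counts per kb, and the level deciles around that value had medians of -4.22 and -4.17. Coding genes within 500 bases of a snoRNA gene did not show it: the 86 tested, on any side, had a median of -3.93, with 29 relatively higher and 15 relatively lower. The 30 with the snoRNA gene upstream had a median of -3.97, with 11 relatively higher and 5 relatively lower.

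**Figure D4:**
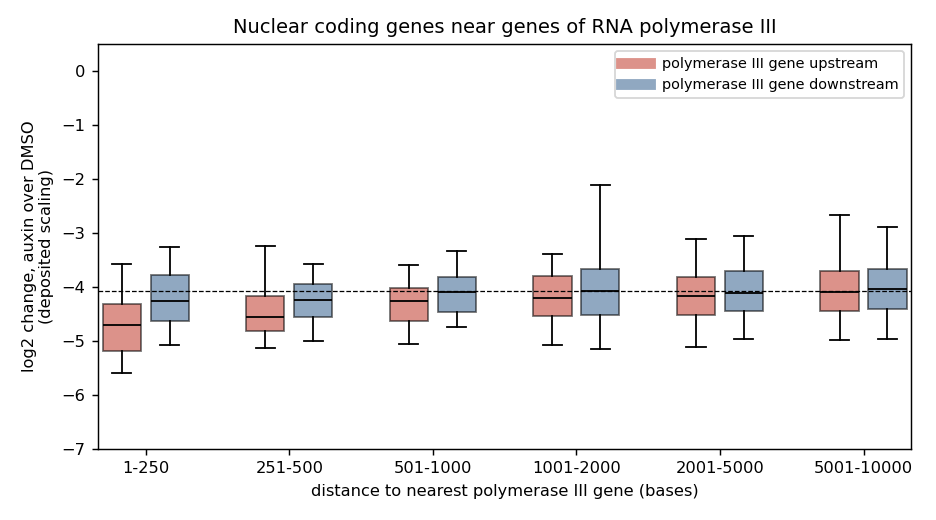
Log2 change of auxin over DMSO on the deposited scaling (y axis) for nuclear coding genes by distance in bases to the nearest polymerase III gene (x axis), with that gene upstream of the start (red) or downstream of the end (blue). Boxes give quartiles and median, whiskers the 5th and 95th percentiles, and the dashed line the coding median. The upstream medians run from -4.72 at the nearest distances to -4.17 between 2000 and 5000 bases.

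Single genes show the range of this class. YKU70, a subunit of the telomeric Ku complex (chromosome XIII, 838187 to 839995 in sacCer3), starts 171 bases from the tyrosine tRNA gene tY(GUA)M2. It had 12.48 and 36.62 scaled counts in auxin, from 18 and 53 raw counts, and 1060 and 1318 in DMSO, or -5.59 on the log2 scale (SE 0.40, edgeR adjusted p = 1.77e-41). YHL009C, a bZIP transcription factor 238 bases from tV(AAC)H, changed by -5.27, and YMR163C, a factor of peroxisome inheritance 248 bases from tV(AAC)M3, by -5.22. At the other end of the class, YNL132W, needed for making the small ribosomal subunit, starts 362 bases from tF(GAA)N. It had 403.6 and 499.6 scaled counts in auxin and 3209 and 3598 in DMSO, and its change was -2.91 (SE 0.36, edgeR adjusted p = 4.47e-16). YBL004W, a component of the small-subunit processome 480 bases from tS(AGA)B, changed by -3.25. These 5 were chosen after their values were seen, as the class members with means of at least 500 that lay lowest and highest.

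Divergent and tandem neighbours among the coding genes were weakly alike in their changes, and convergent neighbours were not. The 1139 divergent pairs with at most 1000 bases between them had a Spearman rho of 0.19 for the log2 changes of their members, and the 2254 tandem pairs 0.17. For the 1309 convergent pairs rho was 0.01. All genes of a pair come from the same libraries; with the first gene taken from 1 replicate pair and the second from the other, rho was 0.17 and 0.17 for divergent, 0.13 and 0.15 for tandem, and -0.01 and 0.00 for convergent pairs. At a mean of at least 500 scaled counts in both genes, rho was 0.30 over 424 divergent, 0.13 over 827 tandem and -0.04 over 478 convergent pairs.

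Relative calls of neighbours gave the same order. Of 307 divergent pairs in which both genes were called, 205 (66.8%) were called in the same direction, as were 424 of 687 tandem pairs (61.7%) and 192 of 399 convergent pairs (48.1%). Away from direct neighbours the likeness was small, with a rho of 0.09 for genes 2 places apart, 0.05 for 3 places, 0.03 for 5 places and 0.01 for 10 places.

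Genes of ribosomal RNA processing and ribosome assembly fell less than the typical gene, and genes of glycolysis fell more. The spread was described over 377 annotation terms with at least 20 tested nuclear genes each. Of these terms, 40 had a median more than 0.3 above that of coding genes and 12 a median more than 0.3 below. The terms were ranked by the changes themselves, so their order is a description.

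The 6 highest terms concerned ribosomal RNA or ribosome assembly. Of the 20 genes annotated to snoRNA binding, 17 were relatively higher and none relatively lower, with a median of -3.31. Cleavage in the 5′ external spacer (31 genes, median -3.49) had 26 relatively higher and 1 lower, and cleavage at the mature 5′ end of the small-subunit RNA (32 genes, -3.50) had 25 and 1. rRNA methylation (57 genes, -3.52) had 44 and 5, the small-subunit processome (52 genes, -3.53) had 40 and 3, and the large-subunit preribosome (52 genes, -3.55) had 36 and 4. The terms overlap: the processome and rRNA methylation share 41 genes, 78.8% of the first and 71.9% of the second. The large-subunit preribosome shares only 1 gene with each of 3 of them.

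YDR457W, an E3 ubiquitin ligase annotated to both cleavage terms, had 2420 and 3609 scaled counts in auxin and 27620 and 31930 in DMSO, and it changed by -3.30. YMR229C, an RNA-binding protein of the processome, had 2332 and 3115 scaled counts in auxin and 20700 and 22040 in DMSO. Its log2 change was -2.97 (SE 0.36, edgeR adjusted p = 4.55e-16) and its relative change 1.07. MAK21, a factor of the large-subunit precursor, had 1042 and 1380 scaled counts in auxin and 9229 and 10750 in DMSO, a change of -3.04. YJL109C, a nucleolar processome component, changed by -3.31, and YPL093W, a nucleolar GTPase, by -3.65. All 5 were relatively higher.

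The 6 lowest terms were of metabolism, respiration and chromatin. Of the 23 glycolysis genes, 16 were relatively lower and 1 relatively higher, with a median of -4.56. The replication fork protection complex (27 genes, median -4.57) had 16 relatively lower and 4 higher, and its most abundant members were SPT16, with a change of -3.75, and YNL030W, which encodes histone H4. YNL030W had 187.2 and 277.8 scaled counts in auxin and 7794 and 9527 in DMSO, or -5.22 on the log2 scale (SE 0.41, edgeR adjusted p = 7.36e-36). A second gene encodes an identical histone, so its reads cannot be placed with certainty. Oxidoreductases of CH-OH donors (21 genes, -4.54) had 12 relatively lower and 4 higher, and NAD binding (22 genes, -4.49), which shares 13 genes with them, had 10 and 5. Copper ion binding (20 genes, -4.49) had 11 relatively lower and 1 higher, and assembly of respiratory complex IV (20 genes, -4.48) had 7 and 2. SOD1, the copper-zinc superoxide dismutase, changed by -4.90, while YJR016C, a dihydroxyacid dehydratase of the same copper term, changed by -3.71. The relative change of YJR016C was 0.32 (SE 0.08, edgeR adjusted p = 0.00364), a call lost without DMSO replicate 2 (adjusted p = 0.131). YGL187C, a subunit of cytochrome c oxidase, changed by -4.71.

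Genes of the transcription machinery were described by lists matched by symbol only. Of 18 elongation and termination symbols 8 were matched, and all 8 were relatively higher, with a median of -3.50. SPT6, a histone chaperone of elongation, had a relative change of 0.52 (SE 0.09, edgeR adjusted p = 5.11e-05). SPT16, a subunit of the FACT chaperone, had one of 0.28 (SE 0.08, edgeR adjusted p = 0.00886), which rose to 0.0966 without DMSO replicate 2. Of 19 basal factor symbols 7 were matched, with 4 relatively higher, none lower and a median of -3.64. SSL2, a helicase of TFIIH, changed by -3.40, TFG1, a subunit of TFIIF, by -3.64, and SUA7 itself by -3.64. SUA7 was relatively higher by 0.41 (SE 0.09, edgeR adjusted p = 0.000798). All 8 polymerase III factor genes were matched, with 4 relatively lower, none higher and a median of -4.26. Among them TFC3, a subunit of the TFIIIC factor that binds within tRNA genes, changed by -4.97, with a relative change of -0.94 (SE 0.09, edgeR adjusted p = 7.93e-08). TFC4, another TFIIIC subunit, had one of -0.26 (SE 0.08, edgeR adjusted p = 0.0148). Its call was lost without auxin replicate 2 (adjusted p = 0.111), DMSO replicate 1 (0.158) or DMSO replicate 2 (0.154) and with DESeq2 (0.0968).

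The coding genes farthest below the typical gene, among those with a mean of at least 500 scaled counts, had varied roles. YDR380W, a phenylpyruvate decarboxylase (chromosome IV, 1234218 to 1236125), had 14.56 and 19.35 scaled counts in auxin, from 21 and 28 raw counts, and 1042 and 1455 in DMSO. It kept 1.37% of the DMSO level, or -6.19 on the log2 scale (SE 0.42, edgeR adjusted p = 2.04e-45). YHR137W, an aromatic aminotransferase, had 22.19 and 47.68 scaled counts in auxin and 1653 and 2237 in DMSO, a change of -5.79. YLR040C, a cell wall protein specific to MATalpha cells, changed by -5.98, from 13 and 32 raw counts in auxin. In each of these genes the auxin libraries lay far below both DMSO libraries, while the auxin replicates differed from each other most at YLR040C.

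With more counts behind them, TDH1 had 169.9 and 245.3 scaled counts in auxin and 9869 and 11620 in DMSO, or -5.69 on the log2 scale (SE 0.42, edgeR adjusted p = 9.89e-40). GPD1, the glycerol-3-phosphate dehydrogenase of glycerol synthesis, changed by -5.49. YRA1, a messenger RNA export factor, had 162.3 and 234.2 scaled counts in auxin and 8906 and 10270 in DMSO, a change of -5.59. YRA1 lies directly downstream of YDR380W on the same strand of chromosome IV, at 1236558 to 1238004, so the genes with the lowest and the sixth lowest relative changes were neighbours. The gene before them, YDR379W, changed by -4.08, at the coding median. AGP1, an amino acid permease, changed by -5.45, and YHR143W, a secreted protein of daughter cells, by -5.44.

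At the other end, 10 coding genes with means of at least 500 kept between 20.1 and 76.6% of the DMSO level. That mean includes the auxin counts, so some passed at DMSO levels where a gene with the typical fall would not. YNL008C, a subunit of the Asi ubiquitin ligase of the inner nuclear membrane (chromosome XIV, 616211 to 618241), had 1020 and 1100 scaled counts in auxin and 1342 and 1426 in DMSO. Its log2 change of -0.38 (SE 0.33) was not called on the deposited scaling (edgeR adjusted p = 0.242), and its relative change was 3.67 (SE 0.11, edgeR adjusted p = 3.77e-15). Its raw counts, 1471 and 1592 in auxin and 898 and 1027 in DMSO, were higher in the shallower libraries. SRO77, with a role in exocytosis (chromosome II, 10847 to 13879), had 387.0 and 483.0 scaled counts in auxin and 745.9 and 852.7 in DMSO. Its change of -0.88 (SE 0.32, edgeR adjusted p = 0.00565) was no longer called without auxin replicate 1 (adjusted p = 0.0781), DMSO replicate 1 (0.0884) or DMSO replicate 2 (0.185). Its relative change was 3.17.

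The next genes in that order were closer to the typical fall. YPR184W, the glycogen debranching enzyme, changed by -1.72, and FPR3, a nucleolar prolyl isomerase with a role in nucleosome assembly, by -1.82. YKL125W, a factor of RNA polymerase I transcription, had 384.9 and 460.9 scaled counts in auxin and 1626 and 2037 in DMSO, a change of -2.11. RRI2, of the COP9 signalosome, changed by -2.17, YPL216W, of unknown function, by -2.19, and YDR195W, of messenger RNA 3′-end formation, by -2.21. YMR185W, needed for import of RNA polymerase II into the nucleus, changed by -2.32. In all 10 the auxin libraries lay below the DMSO libraries, and the replicate pairs differed most at FPR3, with changes of -1.96 and -1.71.

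**Figure D5:**
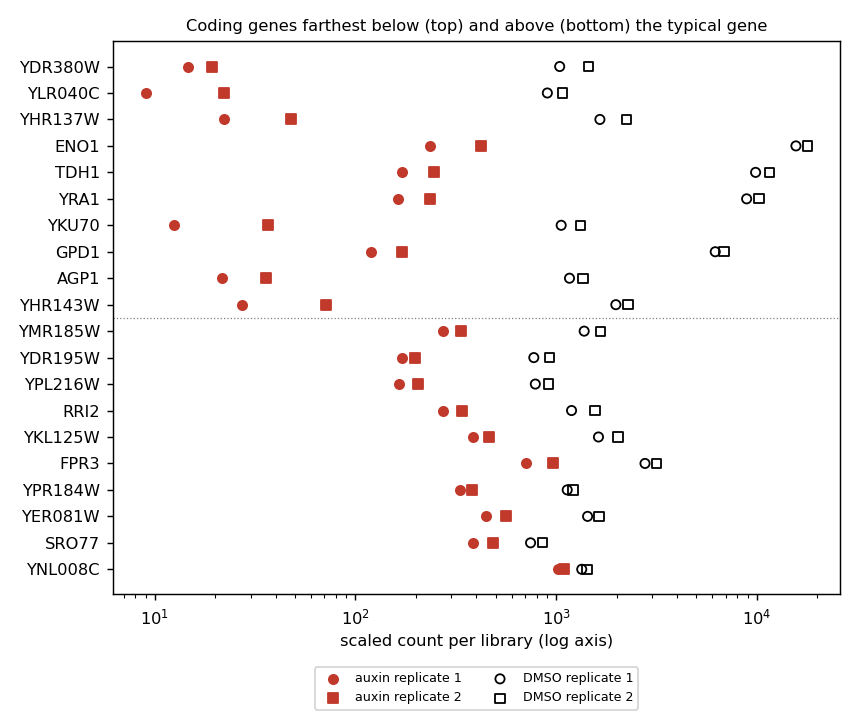
Scaled counts per library (log x axis) of the 10 coding genes farthest below (top) and the 10 farthest above (bottom) the typical gene, red for auxin and open black for DMSO, circles for replicate 1 and squares for replicate 2. The gap between the groups is widest at YDR380W, which kept 1.37% of the DMSO level, and narrowest at YNL008C, which kept 76.6%.

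YER081W, whose deposited description is that of 3-phosphoglycerate dehydrogenase, the first enzyme of serine synthesis, is known for its control by the transcription of a non-coding RNA, SRG1, across its promoter. YER081W had 446.6 and 564.5 scaled counts in auxin and 1435 and 1637 in DMSO, or -1.60 on the log2 scale (SE 0.33, edgeR adjusted p = 1.63e-06) and a relative change of 2.44. SRG1 (chromosome V, 322212 to 322762) ends inside YER081W (322686 to 324095). It had 40.92 and 56.66 scaled counts in auxin and 840.1 and 1233 in DMSO, a change of -4.41 (SE 0.37, edgeR adjusted p = 3.06e-32). AIM9, the coding gene upstream of them, changed by -4.44. SRG1 was looked up after the value of YER081W was seen. Reads in the stretch that the genes share cannot be assigned with certainty.

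Few coding genes rose. YLR343W, a glucanosyltransferase of spore wall assembly, had 240 and 293 raw counts in auxin and 48 and 68 in DMSO, or 1.15 on the log2 scale (SE 0.32, edgeR adjusted p = 0.000352). It was chosen after its value was seen, as was YOR242C, a spore wall protein, at 0.83 (SE 0.33, edgeR adjusted p = 0.0129). The YOR242C change was no longer called without auxin replicate 2 (0.70), DMSO replicate 1 (0.82) or DMSO replicate 2 (0.85). It was also not called with DESeq2 (0.84, adjusted p = 0.0702). These 2 genes do not describe spore genes as a group. Of 45 tested genes annotated to ascospore formation, 40 fell and 3 rose, with a median of -4.21. Among all tested genes, 97.6% fell and 1.31% rose.

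Changes in newly synthesized RNA went with changes in total RNA. Over 5625 coding genes the Spearman rho of the log2 changes in the 2 kinds of RNA was 0.48. The RNA kinds were measured in different libraries, and their scaling factors do not enter a rank correlation across genes.

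Members that were not tested are accounted for as follows. Of 941 untested genes, 722 were nuclear coding genes of 6349 listed, 176 were nuclear tRNA genes, and 21 were mitochondrial tRNA genes. Of the 5800 tested, 420 had under 10 counts in both auxin libraries and so passed through their DMSO counts, 402 of them nuclear coding genes, and 16 coding genes had 0 counts in both auxin libraries. In the other direction, 102 tested genes had under 10 counts in both DMSO libraries, 40 of them nuclear coding genes. Medians and counts over tested genes carry this selection at low levels. The 3226 coding genes with means of at least 500 carry a selection of their own. Their mean includes the auxin libraries, so a gene that fell less passed at a lower DMSO level.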

How the data were processed

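The authors' deposited raw counts per gene for 4 libraries of newly synthesized RNA were used, per the file headers. Their deposited signal equals that count over a library factor, 1.44 and 1.45 for auxin and 0.669 and 0.720 for DMSO. How the authors set these factors is not stated in any source used, and S. pombe counts were not used, so each absolute level rests on them. Columns of log2 fold change and of p-value, deposited as the authors' comparisons, were not used. Per the labels' protocols, 3 parts of S. pombe cells were mixed with 1 part of S. cerevisiae, and 300 ng of labelled RNA went into stranded libraries after depletion of ribosomal RNA. The submitters' processing notes name sacCer3 and bcl2fastq 2.17.1.14. The aligner, the counter and use of strand were not given in the sources used here.

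The quasi-likelihood test of edgeR 4.0.16 (R 4.3.3) was run on genes kept by filterByExpr (minimum count 10), once with the deposited factors and once with TMM, with Benjamini-Hochberg adjustment over 5800 genes. The SE printed is the absolute log2 change over the square root of the F statistic. Replicate pairs and library medians used a pseudocount of 0.5. Level deciles were cut on the mean deposited DMSO signal per kb, and their medians are of the fitted changes. Exact two-sided permutation of the library medians (-4.28 and -3.84 in auxin, -0.12 and 0.12 in DMSO) gave p = 0.333, the smallest that 2 against 2 allow. Classes, terms and lists were described by counts and medians, with no test. Replicates of a group differed beyond sampling noise, with a chi-square per degree of freedom of 2.82 in auxin and 4.00 in DMSO.

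Named genes were the 10 lowest and 10 highest relative changes among called coding genes with a mean of at least 500 scaled counts and 1 sign in both replicate pairs, the 2 most abundant members of the 6 lowest and 6 highest terms, the 3 most abundant genes per biotype, the 10 highest DMSO levels per kb, and 2 genes per list. Members and lists were chosen with earlier results of these data known. Of 6741 genes, 2216 had a symbol; none of 8 polymerase I factor symbols was matched. On simulated data for the relative comparison (5800 genes), 86, 90, 86 and 98% of genes changed by -2, -1, 1 and 2 were recovered, and 4.76% of calls were unchanged genes. There, every gene had the same dispersion (0.00204), and all but a small set of genes shifted by the same -4.08. In the real data 26.3 and 27.7% of genes were called relatively lower and higher. The simulated rates therefore do not carry over to the real calls. Alternatives were DESeq2 1.42.0, other scalings, filters and pseudocounts, a fold threshold, a replicate block and each library left out; the polymerase III class without low genes or dubious frames was added after the data were seen. Promoter sequence was not analysed here.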

Additional observations from a re-analysis of the deposited data

How the results depend on the processing

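The number of genes higher on the deposited scaling was 123 with no filter, 8 above a mean count minimum of 50, and DESeq2 called 32; TMM in place of the deposited factors gave 1608 higher and 1523 lower, which are the relative calls. Relatively lower genes numbered 982 with DESeq2, and with a threshold of 1 on the log2 change 26 were lower and 304 higher. With no filter the interquartile range was 0.96 and rho with the DMSO level -0.18; rho was 0.08 at a mean of at least 50 and -0.04 with the level from DMSO replicate 2. The offset of dubious frames was 0.47 at a mean of at least 50 and 1.16 as a ratio with a pseudocount of 1, which put the lowest level decile at 0.88 and the class with a downstream polymerase III gene at -0.15. At means of at least 500 the downstream class was at -0.09 and the upstream class at -0.45. Leaving out each library in turn gave 5644 to 5658 lower and 70 to 74 higher genes, 1033 to 1338 relatively lower and 1256 to 1541 relatively higher, a median of -4.31 to -3.87, an interquartile range of 0.75 to 0.87 and a rho of -0.01 to 0.03. Offsets from the coding median then ran from 5.24 to 5.86 for tRNA, 0.71 to 0.86 for dubious frames, 0.37 to 0.60 for the lowest level decile, 0.06 to 0.15 for the longest, -0.17 to -0.13 for chromosome VI, -0.58 to -0.42 for the upstream and -0.18 to -0.14 for the downstream class, 0.76 to 0.82 for snoRNA binding and -0.61 to -0.39 for glycolysis. The cause of each of these shifts was not tested. The replicate numbers do not pair the libraries by the labels, and deviations of same-numbered libraries correlated at 0.03. A replicate block gave 5663 lower and 74 higher genes, and 1416 relatively lower and 1528 relatively higher. Over named genes, 1306 alternative values kept direction and call, 27 lost the call, 13 gained it and none reversed.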
